A study of Mus musculus with 62 samples.

Results

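Class 3 and class 1 primary monocytes were compared directly with each other: the 2 libraries labelled class 3 were set against the 2 labelled class 1, which makes 4 of the 62 libraries of the series. The series measured bulk RNA in clones of ER-Hoxb8 cells, conditionally immortalized mouse myeloid progenitors, and in monocytes taken straight from mice. All 4 libraries hold total RNA of cells sorted by flow cytometry from mouse bone marrow, and the labels call them primary monocytes. For both classes the labels give no treatment or genetic change, no strain, sex or age, no sorting gates and no definition of the class. They do not say whether the libraries of a class came from separate animals, so each p-value reflects only how much these particular samples vary, and that variation may be technical. Class 2 and class 4 monocytes, with 2 libraries each, entered the same fit so that all classes shared 1 estimate of the spread, and sorted classical, intermediate and nonclassical monocytes, also 2 libraries each, served as landmarks.

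Monocytes of the bone marrow arise from dividing granulocyte-monocyte progenitors, whose descendants carry transcripts of primary granule enzymes such as myeloperoxidase and neutrophil elastase before those fade with maturation. Classical monocytes carry Ly6C and the chemokine receptor CCR2 and can become macrophages or dendritic cells in tissues, whereas nonclassical monocytes depend on the nuclear receptor Nr4a1, carry little Ly6C and patrol vessel walls. Programs that monocytes can switch on include the interferon-stimulated genes, driven by interferon receptor signalling, and the class II major histocompatibility complex (MHC class II), driven by the coactivator CIITA.

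The libraries were alike in depth, with 27719896 and 30179995 gene counts in class 3 and 27029108 and 27729210 in class 1. At least 1 count was found for 16720 and 16456 genes in the class 3 libraries and for 15227 and 15529 genes in the class 1 libraries. The 10 most abundant genes took 6.19% and 6.04% of the counts in class 3 and 10.3% in each class 1 library. Levels are given as CPM, gene counts scaled to a common library size with the trimmed mean of M-values. Both classes carried the defining monocyte genes. Ly6c2, the classical surface antigen, was at 2316 and 2785 CPM in class 3 and 2223 and 2339 CPM in class 1, and Csf1r, the macrophage colony-stimulating factor receptor, was at 759 and 742 CPM in class 3 and 1923 and 1854 CPM in class 1.

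In edgeR's quasi-likelihood test, 1831 of the 13686 genes tested (13.4%) differed between class 3 and class 1 at a Benjamini-Hochberg adjusted p under 0.05. Of these, 744 genes (5.44%) were higher and 1087 (7.94%) lower in class 3. Of all genes tested, 1210 (8.84%) passed with a difference of at least 2-fold, 419 (3.06%) higher and 791 (5.78%) lower in class 3. The median log2 fold change over all genes tested was 0.00225. Granule protein genes and mitotic genes stood on the class 3 side, and interferon-stimulated, MHC class II, nonclassical and macrophage genes stood on the class 1 side. The count was 888 without class 3 replicate 1, 615 without class 3 replicate 2, 725 without class 1 replicate 1 and 819 without class 1 replicate 2, where the lone library is assumed to vary like the other classes. It was 3120 without class 4, an alternative added after the data were seen, 3197 with the 4 libraries alone and 888 with all 14 primary monocyte libraries in the fit.

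**Figure D1:**
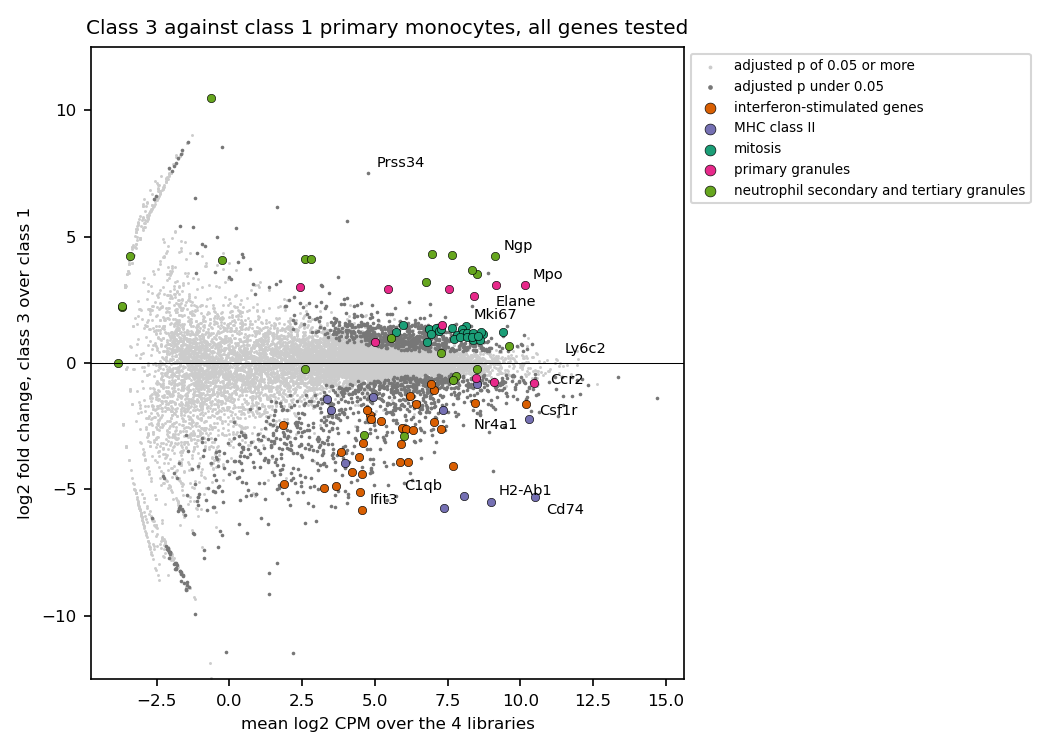
Each point is 1 of the 13686 genes tested. The x axis gives the mean log2 CPM over the 4 libraries, the y axis the log2 fold change of class 3 over class 1, and colours mark 5 gene lists; 2 genes lie outside the plotted range. Mitotic and most granule genes lie above the line at 0, and interferon-stimulated and MHC class II genes lie below it.

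Primary granule genes were among the most abundant transcripts that were higher in class 3. Mpo, which encodes myeloperoxidase, stood at 2949 and 3754 CPM in the class 3 libraries and at 302 and 489 CPM in the class 1 libraries. Every class 3 value lay several times above every class 1 value, and the gene rose by 3.08 on the log2 scale (SE 0.28, edgeR adjusted p = 0.000651). Elane, the gene of neutrophil elastase, was at 1577 and 1804 CPM in class 3 and 155 and 242 CPM in class 1. It rose by 3.09 (SE 0.408, edgeR adjusted p = 0.00261), again with no overlap between the classes. Ctsg, which encodes the granule protease cathepsin G, was at 403 and 637 CPM in class 3 and 68.6 and 69.5 CPM in class 1, a log2 fold change of 2.91 (SE 0.26, edgeR adjusted p = 0.000609). Ms4a3, a membrane protein gene used to trace cells that descend from granulocyte-monocyte progenitors, was at 106 and 138 CPM in class 3 and 12.1 and 20.4 CPM in class 1, with a log2 fold change of 2.91 (SE 0.286, edgeR adjusted p = 0.000792). The serine protease genes Prtn3 and Prss57 rose by 2.66 and 3.03 on the same scale (edgeR adjusted p = 0.0211 and 0.01). Of the 11 primary granule genes tested, 7 rose, 3 fell and 1 did not pass, where 5.44% of all genes tested rose and 7.94% fell. Their median log2 fold change was 2.66, against 0.00225 for all genes. Those that fell were Ctsc, the cathepsin that activates granule proteases, Srgn, the proteoglycan that packs granule contents, and Igsf6, by 0.78, 0.61 and 0.77 log2 units. The number that fell was 1 without class 3 replicate 1, and 0 without class 3 replicate 2 or either class 1 replicate.

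The promoter of Elane is shown because an ETS-family site that PU.1 and related factors can bind is a known element of myeloid promoters. The sequence is the 200 bases before the annotated start, from RefSeq on GRCm38.p6 (chr10:79886112-79886311, plus strand), and capitals mark a match to GGAAGT on either strand.
Elane: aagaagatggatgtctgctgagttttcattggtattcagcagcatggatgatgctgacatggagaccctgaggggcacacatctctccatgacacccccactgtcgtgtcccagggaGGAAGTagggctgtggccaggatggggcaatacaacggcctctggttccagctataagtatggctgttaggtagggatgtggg
In windows from 250 bases before to 50 bases after the start, GGAAGT was found on either strand in 7 of the 9 primary granule genes matched (77.8%) and in 26.5% of the 27025 genes in the RefSeq table. The 7 include Ctsc and Srgn, which fell in class 3. The share was 52.4% for neutrophil secondary and tertiary granule genes and 42.9% for DNA replication genes. It was 33.3% for interferon-stimulated, 25% for MHC class II and 21.7% for mitosis genes. A match of letters is no measurement of binding.

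Part of the neutrophil secondary and tertiary granule list was also higher in class 3, with wide spread between replicates for some of the genes. Ngp, neutrophilic granule protein, was at 3878 and 2021 CPM in class 3 and 46.5 and 269 CPM in class 1. The lower class 3 library lay well above the higher class 1 library, and Ngp rose by 4.22 on the log2 scale (SE 0.821, edgeR adjusted p = 0.0134). S100a8, a subunit of the calcium-binding protein calprotectin, was at 1482 and 1088 CPM in class 3 and 73.7 and 148 CPM in class 1, and rose by 3.54 (SE 0.424, edgeR adjusted p = 0.00167). Its partner S100a9 was at 1407 and 983 CPM in class 3 and 58.3 and 129 CPM in class 1, and rose by 3.67 (SE 0.571, edgeR adjusted p = 0.00525). Both class 1 libraries were low for these genes, but they were unlike each other: Camp, the cathelicidin gene, was at 932 and 585 CPM in class 3 and 6.41 and 69.7 CPM in class 1, and Ltf, lactoferrin, was at 1631 and 841 CPM in class 3 and 10.2 and 117 CPM in class 1. Camp and Ltf rose by 4.32 and 4.28 (edgeR adjusted p = 0.0236 and 0.0319). Without class 3 replicate 1 their adjusted p was 0.0866 and 0.118, and without class 3 replicate 2 it was 0.073 and 0.083. Lcn2, the siderophore-binding lipocalin, was at 390.1 and 279 CPM in class 3 and 28.7 and 42.9 CPM in class 1 and rose by 3.22 (SE 0.264, edgeR adjusted p = 0.000433).

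Of the 23 genes of that list tested, 11 rose and 2 fell, and the count of rises was 3 without class 3 replicate 1 and 7 or 8 without any other of the 4 libraries. The median log2 fold change was 2.25, or 0.66 with genes at 0 in a class set to 3 counts per library. Members that did not pass included Mmp8 and Cd177, which a list of neutrophil-like monocyte genes also holds. Sorted classical monocytes had 498 and 374 CPM of Cd177. The collagenase gene Mmp8 was at 212 and 159 CPM in class 3 and 246 and 283 CPM in class 1, and the neutrophil surface antigen gene Cd177 was at 416 and 258 CPM in class 3 and 415 and 379.8 CPM in class 1. The 2 that fell were Cxcl2, a neutrophil-attracting chemokine, and Csf3r, the receptor of granulocyte colony-stimulating factor, by 2.90 and 0.66 log2 units, and 1 of the 2 was called when any of the 4 libraries was left out. Summed over the list, class 3 held 12055 and 7529.7 CPM, class 4 held 50754 and 70810 CPM and class 1 held 2151 and 2912 CPM, so class 3 lay between class 4 and class 1 in this measure. Of the 15 neutrophil-like monocyte genes tested, 9 rose and 1, Saa3, fell, with a median log2 fold change of 2.35. Over all genes tested, 5.44% rose and 7.94% fell. The 9 include Mpo, Elane, Ctsg, Ms4a3, Prtn3 and Lcn2, which are named above. In bulk RNA, fewer cells of a type and less RNA per cell cannot be told apart, and what part other cells or maturation stages had in the granule values was not tested.

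The largest rise by fold among genes of moderate level was Prss34, a serine protease gene of basophils and mast cells. It stood at 547 and 219.6 CPM in class 3 and at 2.19 and 1.96 CPM in class 1. The class 3 libraries differed from each other, yet both lay far above the class 1 libraries, and the log2 fold change was 7.53 (SE 0.634, edgeR adjusted p = 0.000775). Mcpt8, the basophil protease gene, was at 176 and 74.6 CPM in class 3 and 1.43 and 3.58 CPM in class 1 and rose by 5.63 (SE 0.677, edgeR adjusted p = 0.00168). Cpa3, mast cell carboxypeptidase, was at 36 and 15.3 CPM in class 3 and 0.279 and 0.415 CPM in class 1 and rose by 6.18 (SE 1.04, edgeR adjusted p = 0.0102). In each of these genes class 3 replicate 1 was above replicate 2. Of the 15 mast cell, basophil and eosinophil genes tested, 6 rose, among them Gata2 and Ms4a2, 1 fell, the eotaxin receptor gene Ccr3, and the others did not pass. Without class 1 replicate 1 the rises numbered 3, and without class 3 replicate 2 Ccr3 was not called. Fcer1a, the alpha chain of the high-affinity IgE receptor, was at 16.8 and 5.83 CPM in class 3 and 0 and 2.45 CPM in class 1 (edgeR adjusted p = 0.163). The median log2 fold change of the list was 3.19, or 1.97 with genes at 0 in a class set to 3 counts per library. Its summed level was 847 and 362 CPM in class 3, 5.29 and 8.61 CPM in class 2, 3092 and 1519 CPM in class 4 and 27 and 30.9 CPM in class 1. What part basophils or mast cells had in these values was not tested.

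Cell division genes were higher in class 3 almost without exception. Of the 27 mitosis genes tested, 26 rose and none fell, and all 27 fold changes were positive, with a median log2 fold change of 1.20. Mki67, which encodes the proliferation antigen Ki-67, was at 405 and 524 CPM in class 3 and 175 and 158 CPM in class 1. The lower class 3 library was far above the higher class 1 library, and Mki67 rose by 1.48 (SE 0.184, edgeR adjusted p = 0.00192). Cdk1, the kinase that drives entry into mitosis, was at 307 and 333 CPM in class 3 and 129.7 and 117 CPM in class 1 and rose by 1.38 (SE 0.149, edgeR adjusted p = 0.00108). Cenpe, a kinesin gene of the kinetochore, was at 195 and 246 CPM in class 3 and 80.6 and 90.2 CPM in class 1 and rose by 1.37 (SE 0.172, edgeR adjusted p = 0.00202). The member that did not pass was Espl1, the protease gene separase, at 87.8 and 122 CPM in class 3 and 34.6 and 40.3 CPM in class 1 (edgeR adjusted p = 0.101). The summed mitosis level was 10687 and 10505 CPM in class 3 and 4633 and 4926 CPM in class 1. The count of rises was 20, 19, 14 and 18 when class 3 replicate 1, class 3 replicate 2, class 1 replicate 1 and class 1 replicate 2 were left out.

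DNA replication genes moved less. Of 27 tested, 14 rose and none fell, with a median log2 fold change of 0.67, and 3 to 5 rose when any of the 4 libraries was left out. Rrm1, a subunit of ribonucleotide reductase, was at 584 and 501 CPM in class 3 and 249 and 242 CPM in class 1 and rose by 1.14 (SE 0.201, edgeR adjusted p = 0.00875). Pole, the catalytic subunit of DNA polymerase epsilon, was at 44.5 and 46.5 CPM in class 3 and 9.72 and 15.4 CPM in class 1 and rose by 1.86 (SE 0.416, edgeR adjusted p = 0.0236). Mcm6, a subunit of the replicative helicase, was at 451 and 368 CPM in class 3 and 294 and 264 CPM in class 1 and did not pass (edgeR adjusted p = 0.0965). None of the 20 replication-dependent histone genes tested passed in edgeR, with 3 at unadjusted p under 0.05 and 1 called by DESeq2.

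The promoters of Mki67 and Cdk1 are shown because mitotic genes are known for CCAAT boxes, bound by NF-Y, and for the cell cycle homology region, whose core reads TTTGAA. The sequences are the 200 bases before the start from RefSeq on GRCm38.p6, both from the minus strand, of Mki67 (chr7:135716380-135716579) and Cdk1 (chr10:69352913-69353112), and capitals mark CCAAT or TTTGAA read on either strand.
Mki67: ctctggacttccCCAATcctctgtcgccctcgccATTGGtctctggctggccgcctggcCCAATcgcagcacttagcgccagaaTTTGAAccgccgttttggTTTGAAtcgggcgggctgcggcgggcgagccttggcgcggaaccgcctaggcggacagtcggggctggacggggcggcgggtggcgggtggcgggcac
Cdk1: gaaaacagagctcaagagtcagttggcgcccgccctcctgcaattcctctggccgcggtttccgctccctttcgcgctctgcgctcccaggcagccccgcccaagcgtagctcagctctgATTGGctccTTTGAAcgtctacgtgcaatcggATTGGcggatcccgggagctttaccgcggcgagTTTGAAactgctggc
CCAAT was present in 19 of the 23 mitosis genes matched (82.6%) and in 41.1% of all genes in the RefSeq table, in the window from 250 bases before to 50 bases after the start. It was also present in 7 of 8 MHC class II genes matched (87.5%), a list that was lower in class 3, and in 13 of 21 DNA replication genes (61.9%). TTTGAA was present in 17 of 23 (73.9%) and in 20.2% of all genes.

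Of 22 progenitor genes, 2 were higher and 1 lower in class 3, a share close to the 13.4% called over all genes, with a median log2 fold change of 0.23. Cd34, a surface antigen of blood progenitors, was at 51.6 and 61.9 CPM in class 3 and 19.1 and 12.7 CPM in class 1 and rose by 1.84 (SE 0.439, edgeR adjusted p = 0.0304). It lost its call when any 1 of the 4 libraries was left out, with adjusted p between 0.0901 and 0.193. The other rise was Gata2, at 13.9 and 7.66 CPM in class 3 and 0.558 and 1.7 CPM in class 1, and it was not called without class 3 replicate 1 or class 1 replicate 1. Sfpi1, which encodes the myeloid regulator PU.1, was at 636 and 598 CPM in class 3 and 847 and 844 CPM in class 1 and fell by 0.45 (SE 0.109, edgeR adjusted p = 0.0305), a call lost when any 1 of the 4 libraries was left out. Kit, the stem cell factor receptor, was at 7.36 and 5.08 CPM in class 3 and 1.79 and 3.92 CPM in class 1 and did not pass (edgeR adjusted p = 0.201).

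Among 44 myeloid transcription factor genes, 2 rose and 23 fell in class 3, with a median log2 fold change of −0.87. The falls numbered 13 without class 3 replicate 2, 13 without class 1 replicate 1 and 15 or 16 without the other libraries. The rises were Cebpe, a factor required for secondary granules, at 35.9 and 33 CPM in class 3 and 6.57 and 6.91 CPM in class 1 (log2 fold change 2.35, SE 0.312, edgeR adjusted p = 0.00266), and Irf8, required for monocyte formation. Irf8 was at 1344 and 1378 CPM in class 3 and 839.7 and 836 CPM in class 1 and rose by 0.70 (SE 0.12, edgeR adjusted p = 0.00816). Levels of both factors were close between replicates, but Irf8 was not called without class 3 replicate 2 or either class 1 replicate.

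Interferon-stimulated genes were lower in class 3 as a group, and their folds were among the largest measured. Of 30 tested, 29 fell and none rose, with a median log2 fold change of −2.64. Ifit3, an antiviral protein gene of the tetratricopeptide family, was at 3.59 and 2.58 CPM in class 3 and 156 and 195 CPM in class 1. The classes were far apart and the replicates close, and Ifit3 fell by 5.83 on the log2 scale (SE 0.255, edgeR adjusted p = 0.00012). Irf7, the factor that amplifies interferon production, was at 59.2 and 43.1 CPM in class 3 and 850.1 and 848 CPM in class 1 and fell by 4.05 (SE 0.2, edgeR adjusted p = 0.00012). Rsad2, which encodes the antiviral enzyme viperin, was at 6.81 and 3.83 CPM in class 3 and 82.2 and 140.4 CPM in class 1 and fell by 4.39 (SE 0.448, edgeR adjusted p = 0.000904). The ubiquitin-like modifier gene Isg15 was at 6.88 and 5.2 CPM in class 3 and 69.1 and 89.7 CPM in class 1, a fall of 3.72 (SE 0.308, edgeR adjusted p = 0.000445). Rtp4 and the double-stranded RNA sensor gene Oas2 fell by 5.09 and 4.93, and Pydc4, whose sequence is close to other genes of the Ifi200 family so that its reads may be shared, fell by 5.64 (edgeR adjusted p = 0.000342, 0.000476 and 0.00012). Ifi44 did not pass, at 0.553 and 0.79 CPM in class 3 and 13.8 and 23.1 CPM in class 1 (edgeR adjusted p = 0.0702).

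The summed interferon-stimulated level was 1772 and 1350.3 CPM in class 3, 7175 and 6452 CPM in class 2, 1542 and 1993 CPM in class 4 and 7255 and 6986 CPM in class 1. In this sum, class 3 and class 4 stood on the low side, and class 2 and class 1 on the high side. The number of falls was 24 to 28 when any of the 4 libraries was left out. Between sorted nonclassical and classical monocytes the median log2 fold change of these genes was 0.03. A summed level weighs abundant genes most, and single genes set class 3 below class 4. Ifit3, Rtp4 and Oas2, the largest falls of the list, were lower in class 3 than in class 4 by 2.87, 3.54 and 2.91 log2 units. Irf7 was lower by 0.75 (edgeR adjusted p = 0.0175), and Ifi44 did not pass in that comparison (edgeR adjusted p = 0.644).

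The promoters of Ifit3, Rsad2 and Isg15 are shown because interferon-stimulated genes are known for a promoter element through which interferon signalling acts. Each is the 200 bases before the start from RefSeq on GRCm38.p6: Ifit3 from chr19:34583329-34583528 on the plus strand, Rsad2 from chr12:26456453-26456652 on the minus strand and Isg15 from chr4:156200819-156201018 on the minus strand. Capitals mark matches on either strand to the core of that element, GAAA, any 2 bases and GAAA again, so a match on the opposite strand appears as its reverse complement.
Ifit3: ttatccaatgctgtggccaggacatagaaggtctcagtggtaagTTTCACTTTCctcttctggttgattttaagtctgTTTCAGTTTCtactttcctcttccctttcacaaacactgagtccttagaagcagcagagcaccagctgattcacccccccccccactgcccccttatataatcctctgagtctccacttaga
Rsad2: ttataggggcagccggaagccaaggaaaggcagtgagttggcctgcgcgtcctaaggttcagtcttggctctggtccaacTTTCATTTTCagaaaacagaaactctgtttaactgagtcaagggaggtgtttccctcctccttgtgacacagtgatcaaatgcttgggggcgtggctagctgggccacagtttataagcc
Isg15: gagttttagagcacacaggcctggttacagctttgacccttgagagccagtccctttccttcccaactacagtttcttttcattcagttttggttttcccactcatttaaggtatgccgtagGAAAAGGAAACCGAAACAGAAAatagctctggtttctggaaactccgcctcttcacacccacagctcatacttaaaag
Ifit3 held 2 matches, Rsad2 held 1 and Isg15 held 3 that overlap. In windows from 250 bases before to 50 bases after the start, 15 of the 21 interferon-stimulated genes matched (71.4%) held the motif, against 1 of 23 mitosis genes (4.35%) and 3.99% of all genes in the RefSeq table.

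MHC class II genes were lower in class 3, all 11 of the 11 tested, with a median log2 fold change of −2.19. H2-Ab1, the beta chain of the I-A molecule, was at 125 and 38.5 CPM in class 3 and 3762 and 3513 CPM in class 1. The class 3 libraries differed from each other, while both lay far under both class 1 libraries, and the gene fell by 5.48 on the log2 scale (SE 0.548, edgeR adjusted p = 0.000846). Cd74, the invariant chain that guides class II molecules, was at 368 and 127 CPM in class 3 and 9995 and 9653 CPM in class 1 and fell by 5.31 (SE 0.515, edgeR adjusted p = 0.000775). H2-Eb1 and H2-Aa fell by 5.72 and 5.27 (edgeR adjusted p = 0.000672 and 0.000775). Ciita, the coactivator that drives the set, was at 5.11 and 3.07 CPM in class 3 and 50.2 and 76.4 CPM in class 1 and fell by 3.95 (SE 0.426, edgeR adjusted p = 0.00108). In all these genes class 3 replicate 1 was the higher of its pair. The summed class II level was 1645 and 1118 CPM in class 3 and 20686 and 19678 CPM in class 1, and 8 or 9 of the 11 genes were lower when any library of the 4 was left out.

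B cells, dendritic cells and macrophages also carry MHC class II, and B cell genes moved in the same direction. Of 18 B cell genes tested, 17 fell in class 3, and 9 fell without class 3 replicate 2. Their median log2 fold change was −3.33, or −3.27 with Rag1, which had no count in class 3, set to 3 counts per library. Ms4a1, which encodes CD20, was at 6.01 and 3.16 CPM in class 3 and 56 and 81.1 CPM in class 1 and fell by 3.91 (SE 0.468, edgeR adjusted p = 0.00166). The summed B cell level was 741 and 621 CPM in class 3 and 1675 and 3065 CPM in class 1. In class 4 it was 6981 and 5215 CPM, above class 1, while the summed class II level there, 6901 and 6150.3 CPM, was below class 1. The part of B cell RNA in the class II difference was not tested further.

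Of 17 genes of the monocyte-derived dendritic cell program, 9 were lower in class 3 and none higher, with a median log2 fold change of −2.16, and the 9 include H2-Ab1, Cd74 and Ciita, which the class II list also holds. Cd209a, a lectin gene of that program, was at 54.6 and 30.8 CPM in class 3 and 116 and 232 CPM in class 1 and did not pass (edgeR adjusted p = 0.0905). Flt3, the receptor that supports dendritic cell development, was at 26.5 and 18.5 CPM in class 3 and 36 and 64 CPM in class 1 and did not pass either (edgeR adjusted p = 0.0681). Over all genes tested, 5.44% were higher and 7.94% lower in class 3. Of 16 conventional and plasmacytoid dendritic cell genes, 6 fell and 1, Irf8, rose, and 3 fell without class 3 replicate 2.

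**Figure D2:**
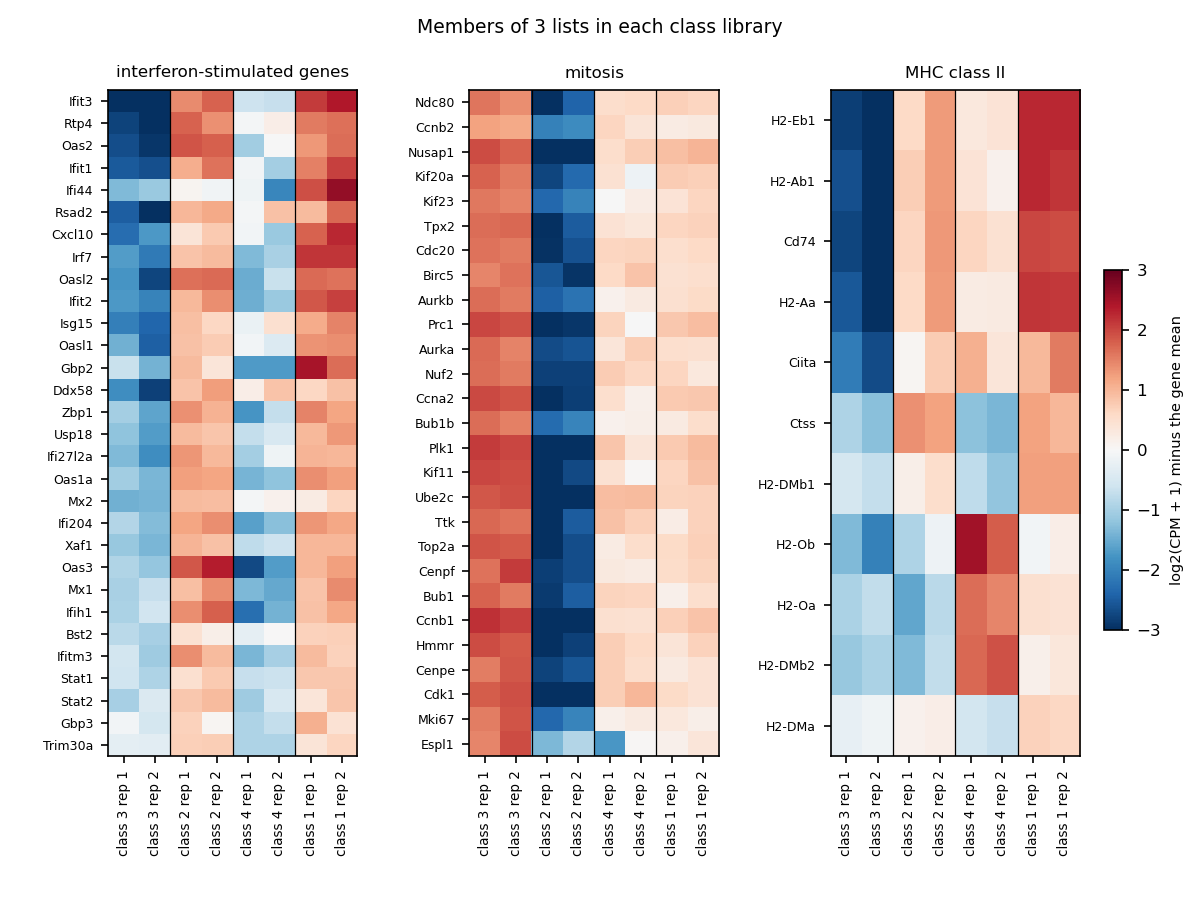
Colour gives log2(CPM + 1) minus the gene's mean over the 8 class libraries for interferon-stimulated, mitosis and MHC class II genes, 1 row a gene and 1 column a library, from class 3 on the left to class 1 on the right. Class 3 is high for mitosis genes and low for the other lists.

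Genes of nonclassical monocytes were lower in class 3. Of 21 tested, 17 fell and 1 rose, with a median log2 fold change of −2.78. Nr4a1, the nuclear receptor that nonclassical monocytes require, was at 129 and 96.1 CPM in class 3 and 680.1 and 554 CPM in class 1. The classes were well separated, and Nr4a1 fell by 2.46 (SE 0.193, edgeR adjusted p = 0.000374). Nr4a1 is also a member of the immediate early list given below. Cx3cr1, the fractalkine receptor, was at 123 and 101 CPM in class 3 and 474 and 373 CPM in class 1 and fell by 1.92 (SE 0.183, edgeR adjusted p = 0.000759). Treml4 was at 5.77 and 3.04 CPM in class 3 and 145 and 68.9 CPM in class 1 and fell by 4.61 (SE 0.483, edgeR adjusted p = 0.00102). Ace, the angiotensin-converting enzyme, and Hes1, a Notch target, fell by 4.99 and 5.36, both at low levels in class 3 (edgeR adjusted p = 0.00638 and 0.000681). The member that rose was Spn, which encodes CD43, at 115 and 146 CPM in class 3 and 47.9 and 43.6 CPM in class 1, with a log2 fold change of 1.51 (SE 0.163, edgeR adjusted p = 0.00108). In the sorted subsets, 16 of the 21 genes were higher in nonclassical than in classical monocytes and 0 lower. Cx3cr1 and Spn did not pass there, with log2 fold changes of 0.47 and −0.71 (edgeR adjusted p = 0.237 and 0.216). Summed over the list, class 3 held 1731 and 1666 CPM and class 1 held 5132 and 4630.1 CPM, and 11 genes were lower without class 3 replicate 2 and 13 to 15 without any other of the 4 libraries.

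Most genes of classical monocytes did not pass. Of 15 tested, 4 fell and none rose, where 7.94% of all genes tested fell and 5.44% rose. Their median log2 fold change was −0.51. Ccr2, the receptor for marrow exit, was at 1058 and 897 CPM in class 3 and 2118 and 1812 CPM in class 1 and fell by 1.01 (SE 0.139, edgeR adjusted p = 0.00313). Lyz2, the macrophage lysozyme, was the most abundant of them, at 18242 and 14488 CPM in class 3 and 44680.3 and 41310.5 CPM in class 1, and fell by 1.39 (SE 0.142, edgeR adjusted p = 0.000904); its near-identical neighbour Lyz1 fell by 5.55, and reads could be split between them. Ly6c2 did not pass (log2 fold change 0.16, edgeR adjusted p = 0.485). The coagulation factor gene F13a1 was at 5027 and 4362 CPM in class 3 and 3256 and 3494 CPM in class 1 (edgeR adjusted p = 0.126). The libraries of the classes did not overlap for F13a1, and for Ly6c2 they did.

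**Figure D3:**
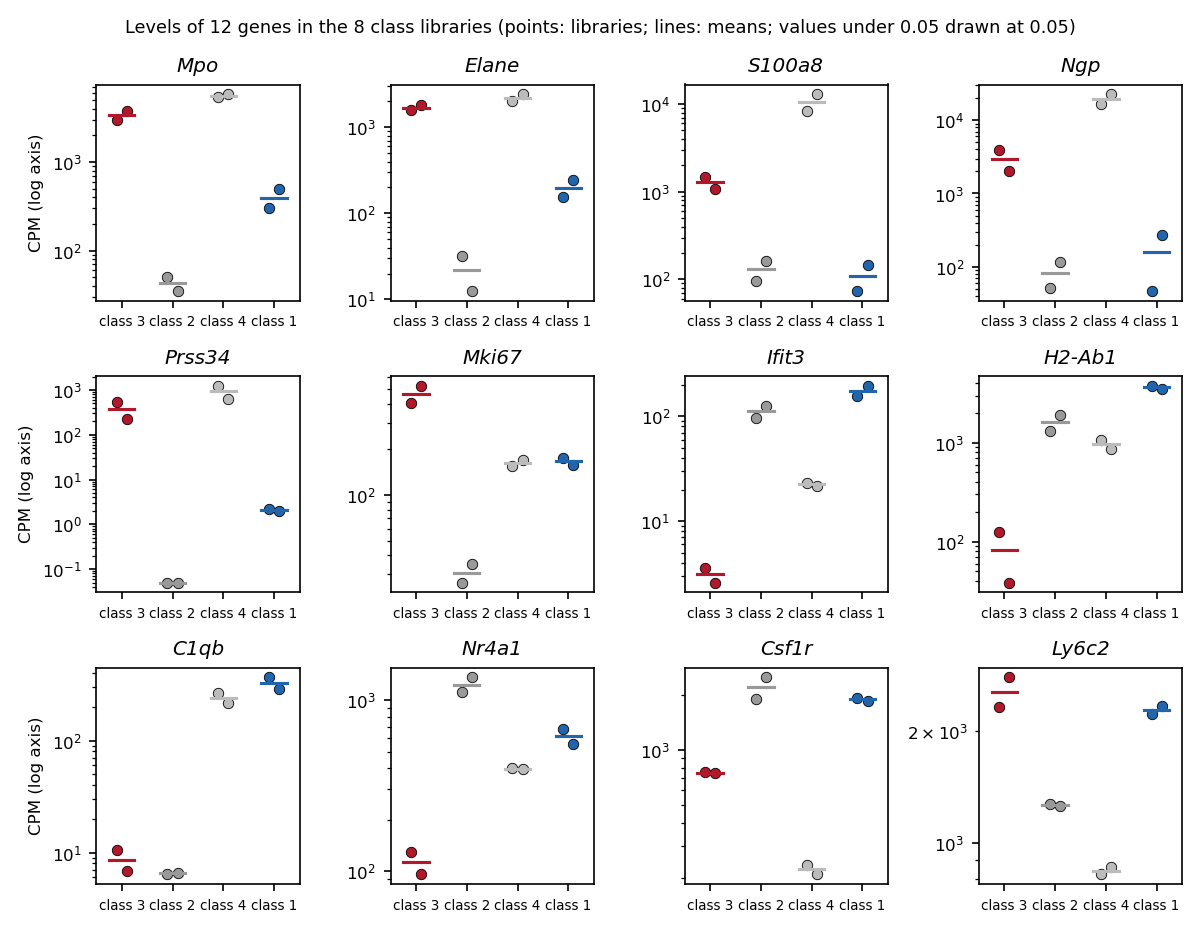
CPM of 12 genes in each library of the 4 classes on log axes, with class 3, class 2, class 4 and class 1 from left to right; each point is a library, and values under 0.05 CPM are drawn at 0.05. Class 3 lies above class 1 for Mpo, Elane, S100a8, Ngp, Prss34 and Mki67 and below it for Ifit3, H2-Ab1, C1qb, Nr4a1 and Csf1r, while the Ly6c2 points of the 2 classes lie close together.

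Tissue macrophage genes were lower in class 3, 15 of 21 tested, with none higher and a median log2 fold change of −3.80. C1qb, a chain of the complement component C1q, was at 10.4 and 6.87 CPM in class 3 and 367 and 290.2 CPM in class 1. The replicates were close and the classes far apart, with a fall of 5.25 (SE 0.257, edgeR adjusted p = 0.00012). Its partner C1qa fell by 4.82 (SE 0.243, edgeR adjusted p = 0.00012). Axl, a receptor tyrosine kinase that takes part in clearing dead cells, was at 18.8 and 12.6 CPM in class 3 and 407 and 365 CPM in class 1 and fell by 4.62 (SE 0.294, edgeR adjusted p = 0.000249). The summed level of the list was 771 and 528 CPM in class 3 and 5973 and 4877 CPM in class 1, and 11 or 12 genes were lower when any of the 4 libraries was left out. Whether resident macrophages or their fragments were part of this was not tested.

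Genes of lipid uptake and efflux moved the same way, with 10 of 16 lower, none higher and a median log2 fold change of −1.45. Apoe, the apolipoprotein that carries cholesterol out of macrophages, was at 184 and 73.7 CPM in class 3 and 2892 and 2150 CPM in class 1 and fell by 4.29 (SE 0.412, edgeR adjusted p = 0.000765). Nr1h3, which encodes the sterol sensor LXR alpha, was at 1.45 and 0.851 CPM in class 3 and 26.2 and 23.2 CPM in class 1 and fell by 4.42 (SE 0.42, edgeR adjusted p = 0.000759). Pltp, the phospholipid transfer protein, fell by 5.07 (SE 0.545, edgeR adjusted p = 0.00108). The count stayed at 9 when any 1 of the 4 libraries was left out. Of 29 lysosome genes, 13 fell and none rose, with a median log2 fold change of −0.63, among them the protease gene Lgmn, by 2.23. Without class 3 replicate 2 the lysosome count was 5, and without any other of the 4 libraries it was 7 to 9.

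Inflammatory genes were lower in class 3. Of 26 cytokine and NF-kB target genes, 19 fell and none rose, with a median log2 fold change of −1.75. Il1b, the interleukin 1 beta gene, was at 3.7 and 2.07 CPM in class 3 and 139 and 70.6 CPM in class 1. The class 1 libraries differed from each other, a gap smaller than that between the classes, and Il1b fell by 5.19 (SE 0.406, edgeR adjusted p = 0.000374). Socs3, the feedback inhibitor of cytokine signalling, was at 9.99 and 4.1 CPM in class 3 and 151 and 109 CPM in class 1 and fell by 4.21 (SE 0.398, edgeR adjusted p = 0.000758). Cd83, an activation antigen, was at 16.5 and 5.29 CPM in class 3 and 179.6 and 150 CPM in class 1 and fell by 3.93 (SE 0.552, edgeR adjusted p = 0.00346). Immediate early genes, which respond within minutes to stimulation or handling of cells, had 11 of 22 lower and none higher, with a median log2 fold change of −0.90, and 4 or 5 lower when any of the 4 libraries was left out. Ier5 fell by 2.01 (SE 0.22, edgeR adjusted p = 0.00116), while Fos, the AP-1 subunit, was at 4048 and 5508 CPM in class 3 and 7309.8 and 9870.2 CPM in class 1 and did not pass (edgeR adjusted p = 0.146). Nr4a1, given above among nonclassical genes, is also on the immediate early list, and its fall of 2.46 was the largest of the 11. The part of cell handling in these values, Nr4a1 included, was not tested.

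Sensing and uptake receptors followed the same direction. Of 24 pattern recognition receptor genes, 11 fell and none rose, with a median log2 fold change of −0.91, among them Tlr7, the sensor of single-stranded RNA, by 3.06 (SE 0.356, edgeR adjusted p = 0.00152), and Clec7a, which encodes the fungal glucan receptor dectin-1, by 2.04 (SE 0.245, edgeR adjusted p = 0.00168). The count was 5 without class 3 replicate 2 or class 1 replicate 1. Of 15 Fc gamma and complement receptor genes, 8 fell and none rose, and 4 fell without class 3 replicate 2 or class 1 replicate 1. Fcgr1, the high-affinity IgG receptor, was at 18.6 and 9.69 CPM in class 3 and 124 and 119 CPM in class 1, and Fcgr4, a receptor enriched on nonclassical monocytes, was at 4.67 and 2.13 CPM in class 3 and 55.3 and 30.1 CPM in class 1. They fell by 3.11 and 3.66 (edgeR adjusted p = 0.000759 and 0.00163). Of 25 growth factor and cytokine receptor genes, 11 fell and none rose, with a median log2 fold change of −0.55. Csf1r, whose levels stand above, fell by 1.33 (SE 0.154, edgeR adjusted p = 0.0015), and Il13ra1, a chain of the interleukin 13 receptor, was at 27.6 and 14.4 CPM in class 3 and 181 and 183 CPM in class 1 and fell by 3.12 (SE 0.363, edgeR adjusted p = 0.00152).

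**Figure D4:**
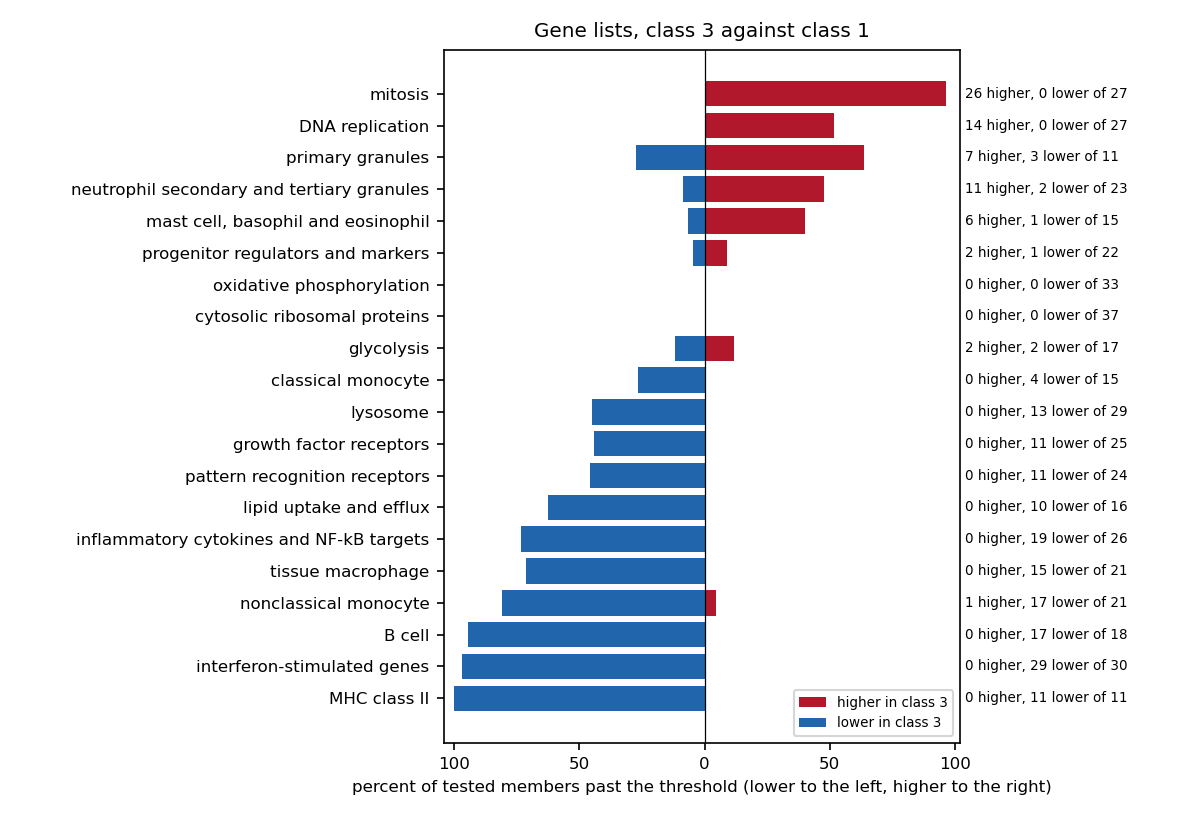
Bars give the percent of tested members of 20 gene lists that were higher in class 3 (to the right) or lower in class 3 (to the left) at adjusted p under 0.05, with the counts beside them. Mitosis genes lie furthest to the right, with 26 of 27 higher, and MHC class II genes furthest to the left, with 11 of 11 lower.

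None of 33 oxidative phosphorylation genes passed in the edgeR test, with 0 at unadjusted p under 0.05, 0 called by DESeq2 and a median log2 fold change of 0.11. None of 37 cytosolic ribosomal protein genes passed, with 2 at unadjusted p under 0.05, 1 called by DESeq2 and a median of 0.18. Of 24 ribosome biogenesis genes, 1 fell, Wdr43, a call lost when any of the 4 libraries was left out. Of 17 glycolysis genes, 2 rose and 2 fell, where 5.44% of all genes tested rose and 7.94% fell. Hk3, a hexokinase gene, was at 348 and 344 CPM in class 3 and 185 and 177 CPM in class 1 and rose by 0.93 (SE 0.11, edgeR adjusted p = 0.00159), with Gpi1 the other rise and Slc2a1 and Pfkfb3 the falls. When any of the 4 libraries was left out, 1 glycolysis gene rose and 0 fell. Of 20 cholesterol synthesis genes, 1 rose, Fdps, and 1 fell, Mvd, and neither was called when any of the 4 was left out. None of 15 heat shock genes passed, with 5 at unadjusted p under 0.05, 3 called by DESeq2 and a median of −0.52. A p that misses the threshold does not show that these levels were equal.

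T and NK cell genes summed to 55.8 and 56.6 CPM in class 3 and 94 and 127 CPM in class 1, with 8 of 22 lower, and 0 to 4 lower when any of the 4 libraries was left out, 0 of them without class 3 replicate 2. Plasma cell genes summed to 392 and 366 CPM in class 3 and 668 and 537 CPM in class 1, with 5 of 7 lower, and 2 or 3 lower when any of the 4 was left out. Xbp1, a transcription factor gene of secretory cells that did not pass, made up most of the plasma cell sum in each of the 4 libraries, at 383 and 363 CPM in class 3 and 369.9 and 349.9 CPM in class 1. Likewise, Nkg7 made up most of the T and NK cell sum in class 3, at 39.1 and 48.2 CPM, against 19.2 and 30 CPM in class 1. Nkg7, which the primary granule list also holds, did not pass (log2 fold change 0.83, edgeR adjusted p = 0.122). The fold changes of the other T and NK cell genes tested were negative, 21 of the 22. Igj, the immunoglobulin joining chain, was at 0 and 0.122 CPM in class 3 and 258 and 127 CPM in class 1 and fell (edgeR adjusted p = 0.0107). Erythroid and megakaryocyte genes summed to 27.2 and 16.7 CPM in class 3 and 80.7 and 152 CPM in class 1, with 10 of 19 lower and 2, the platelet genes Vwf and Itga2b, higher, though neither was called higher without class 3 replicate 1. Stromal and endothelial genes summed to 45.6 and 50.6 CPM in class 3 and 55.6 and 60.8 CPM in class 1, with 2 of 13 higher and 3 lower, and 0 higher and 1 or 2 lower when any of the 4 was left out. Over all genes tested, 5.44% were higher and 7.94% lower in class 3. Among genes in no list, Lars2, a mitochondrial leucyl-tRNA synthetase gene, was at 1247 and 2020.5 CPM in class 3 and 147 and 129.7 CPM in class 1 and rose by 3.56 (SE 0.662, edgeR adjusted p = 0.011). The class 2 libraries differed from each other in Lars2, at 10498 and 2094 CPM, and its adjusted p was 0.0661, 0.0873 and 0.0914 without class 3 replicate 2, class 1 replicate 1 and class 1 replicate 2. Sorted classical monocytes had 13523 and 19776 CPM. The predicted gene Gm15564 moved with Lars2 across the libraries, taking 0.000584% and 0.000924% of counts in class 3 and 8.51e-05% and 7.93e-05% in class 1, and the part of RNA quality or library preparation in these values was not tested.

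Class 2 and class 4 place these differences among the other monocytes, although each comparison with class 1 shares the class 1 libraries. Class 2 differed from class 1 in 9.29% of genes and class 4 from class 1 in 25.1%. Mpo was at 2949 and 3754 CPM in class 3, 50.5 and 34.8 CPM in class 2, 5349.8 and 5799.7 CPM in class 4 and 302 and 489 CPM in class 1. Class 3 thus lay above class 1 and class 2 and below class 4. Mki67 was at 405 and 524 CPM in class 3, 26.4 and 34.9 CPM in class 2, 156 and 169.8 CPM in class 4 and 175 and 158 CPM in class 1, so that class 3 was the highest of the 4. Of the 27 mitosis genes, 26 were lower in class 2 than in class 1, where 5.95% of all genes were lower. Ifit3 was at 3.59 and 2.58 CPM in class 3, 97.4 and 125 CPM in class 2, 23.1 and 21.8 CPM in class 4 and 156 and 195 CPM in class 1, so that class 3 was the lowest of the 4. Of the 30 interferon-stimulated genes, 2 were lower in class 2 than in class 1 and 26 were lower in class 4 than in class 1, where 15% of all genes were lower. H2-Ab1 was at 125 and 38.5 CPM in class 3, 1308 and 1907 CPM in class 2, 1054 and 866 CPM in class 4 and 3762 and 3513 CPM in class 1, again with class 3 lowest. Csf1r was at 759 and 742 CPM in class 3, 1896 and 2487 CPM in class 2, 236 and 209 CPM in class 4 and 1923 and 1854 CPM in class 1, where class 4 was lowest and class 3 next. C1qb was low in class 3 and class 2 and high in class 4 and class 1, with 10.4 and 6.87 CPM in class 3, 6.42 and 6.62 CPM in class 2, 266 and 216 CPM in class 4 and 367 and 290.2 CPM in class 1.

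Sorted classical, intermediate and nonclassical monocytes share no library with the classes and gave a separate scale. Genes of other lineages were also higher in nonclassical than in classical libraries. In edgeR's test, 13 of 18 B cell genes and 7 of 12 mast cell, basophil and eosinophil genes were higher, with median log2 fold changes of 6.62 and 8.30. Of erythroid and megakaryocyte genes 3 of 15 were higher, and of T and NK cell genes 1 of 22. None of these lists had a gene called lower. What part other cells had in this scale was not tested. Over 12877 genes, Spearman's rho of a library's levels with the classical mean was 0.970 and 0.972 for class 3 and 0.953 in each library for class 1. With the nonclassical mean it was 0.823 and 0.814 for class 3 and 0.886 and 0.882 for class 1. These are descriptions across genes, which are not independent replicates. In the nonclassical against classical fit, 811 of 13944 genes (5.82%) differed in edgeR's test at adjusted p under 0.05, and 2.91% were higher and 2.9% lower in nonclassical cells. Among the 737 genes higher in class 3 that were tested in both fits, 8 were higher and 197 lower in nonclassical cells, with a median log2 fold change (nonclassical over classical) of −1.35. Among the 1074 genes lower in class 3, 243 were higher and 10 lower in nonclassical cells, with a median of 0.91. The median over all 12877 genes was 0.0226. These counts rest on few libraries: 869 and 195 genes differed without nonclassical replicate 1 and 2, and 0 without either classical replicate, where edgeR gave 1446 and 1494 genes at unadjusted p under 0.05.

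Not every gene fell on that axis. Interferon-stimulated genes had a median of 0.03 between nonclassical and classical cells while 29 of 30 were lower in class 3. Prss34 was higher in class 3, and it was also higher in nonclassical cells, at 1193 and 3878 CPM in nonclassical and 10.6 and 3.86 CPM in classical monocytes. MHC class II genes did follow the axis, with 9 of 11 higher in nonclassical cells and 11 of 11 lower in class 3. Mitosis genes followed it as well, with 20 of 27 lower in nonclassical cells and 26 of 27 higher in class 3. The class 3 replicates were more alike than the nonclassical replicates, with a Pearson correlation of log2 CPM of 0.978 against 0.811.

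**Figure D5:**
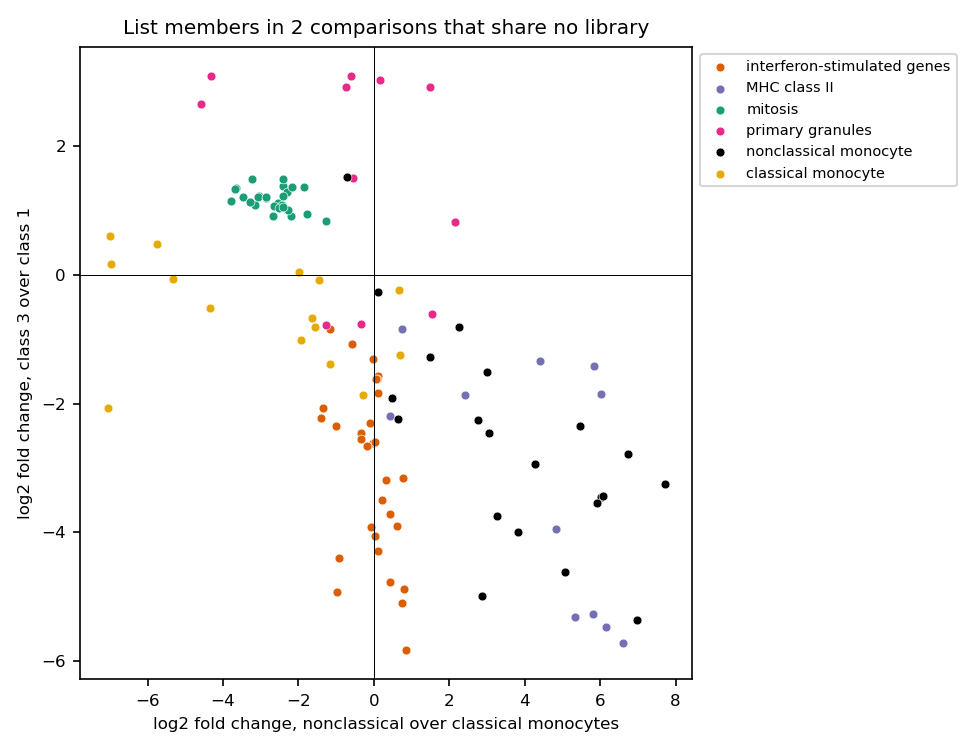
Each point is a gene of a coloured list. The x axis gives its log2 fold change in nonclassical over classical monocytes and the y axis its log2 fold change in class 3 over class 1. MHC class II and nonclassical genes lie to the lower right, mitosis genes to the upper left, and interferon-stimulated genes low near 0 on the x axis.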

How the data were processed

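The authors deposited a table of raw counts per gene for the whole series. Per the submitters' processing notes, the tools were HTSeq 0.6.0 and STAR 2.7.3a with build mm9, and strand and multi-read settings are not given in the sources used here. Antisense and near-identical genes (Lyz1 and Lyz2, Ly6 genes, Bcl2a1 copies, haemoglobin genes) may therefore share reads. The table lists 37620 genes, its 37 mitochondrial genes are all at 0, and 1 column without a sample was not used.

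Genes were filtered with filterByExpr at a minimum count of 10, which left 13686. edgeR 4.0.16 (R 4.3.3, limma 3.58.1) fitted the 8 class libraries, with 23055610 to 35019854 counts each, by quasi-likelihood after TMM scaling, with 4 residual degrees of freedom. Class 3 minus class 1 was a contrast of that fit, with Benjamini-Hochberg adjustment over all genes tested at a threshold of 0.05. The 6 sorted subset libraries were fitted apart. Mean log2 CPM used a prior count of 2. A log2 fold change is edgeR's estimate and its standard error is that estimate divided by the square root of the F statistic. Alternatives were DESeq2 1.42.0 size factors and Wald test, no filter, a minimum count of 50, the 4 libraries alone, all 14 primary libraries, a replicate block, each replicate left out and, added after seeing the data, class 4 left out. Only the edgeR fit of the 8 class libraries was tested on simulated counts, with changes set in class 3, and its outcome is not reported here.

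The members and the 44 gene lists (905 entries, 901 in the table) were chosen with earlier results of these data known. Named genes were 16 fixed genes, the 14 largest rises and 14 largest falls with adjusted p under 0.05, classes that do not overlap and mean log2 CPM of at least 3 (predicted genes, pseudogenes and receptor segments skipped), and from each list up to 3 past the threshold and the most expressed that did not pass. Other genes named (such as Prtn3, Prss57, Cebpe, Irf8, Ctsc, Srgn, Igsf6, Cxcl2, Csf3r, Ccr3, Gm15564 and the few members that make up a small count) were chosen after their values were seen. Some genes that the rule names are not reported here. Promoters came from RefSeq, GRCm38.p6, matched by symbol, and their coordinates are not those of the counting build.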

Additional observations from a re-analysis of the deposited data

How the results depend on the processing

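Of the 40 genes named outside the lists, 36 passed the threshold, and 27 of those passed in every one of the 12 alternatives. The number of genes changed between class 3 and class 1 was 1831, and it was 2797 with DESeq2's Wald test, 3197 with the 4 libraries alone, 888 with all 14 primary libraries and 3120 without class 4. Genes higher in class 3 numbered 744, against 1246 with the Wald test, 1185 with no filter, 1544 with the 4 libraries alone, 299 with all 14 and 1430 without class 4. Genes lower in class 3 numbered 1087, against 1653 with the 4 libraries alone, 589 with all 14 and 1690 without class 4. Leaving out 1 replicate at a time gave 615 to 888 changed, 172 to 279 higher and 437 to 609 lower. The share of calls that were higher was 40.6%, 48.3% with the 4 libraries alone and 23.7% to 31.4% with a replicate left out. The cause of each shift was not tested. The nonclassical against classical count was 811, 3366 with the Wald test, and 0 to 869 with a replicate left out (0 without classical replicate 1 or classical replicate 2, with 1446 and 1494 genes at unadjusted p under 0.05 in edgeR).

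Elane, Ankrd28, Ctsg and Ms4a3 had adjusted p of 0.0959, 0.121, 0.0506 and 0.0839 with all 14 libraries in edgeR, and Camp and Ltf had 0.0523 and 0.106. Ngp had 0.0565 without class 3 replicate 1. These were their highest values except for Camp and Ltf, whose highest were 0.0866 and 0.118 without class 3 replicate 1. Flt3 passed in 4 of the 12 alternatives and Cd209a in 3. With all 14 libraries, some list counts were smaller by more than 1.5 times: 3 primary granule and 5 neutrophil granule rises, 6 DNA replication rises, and 4 immediate early, 5 pattern recognition, 7 lysosome, 6 chemokine receptor, 2 T and NK and 1 plasma cell falls. Same-numbered replicates of class 3 and class 1 did not deviate together (r = 0.0154 across genes, and −0.0106 to 0.0728 over all pairs of classes), so the numbers are not taken to pair the samples. With the replicate block, 1801 genes changed between class 3 and class 1 and 670 between nonclassical and classical. With 2 libraries a class, small differences may have gone uncalled, although some passed, such as Sfpi1 at a log2 fold change of −0.45.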

Other observations

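Families of membrane proteins split between the classes. Of 10 Ms4a genes tested, 7 were lower in class 3 and 2 higher, where 7.94% of all genes were lower and 5.44% higher. Ms4a7, a gene of resident macrophages, was at 1.8 and 0.425 CPM in class 3 and 58.2 and 51.7 CPM in class 1 (edgeR log2 fold change −5.64, SE 0.817, adjusted p = 0.00384), whereas the progenitor gene Ms4a3 and the basophil gene Ms4a2 were the rises. In the Ly6 family, 4 of 8 genes were lower and 1, the neutrophil antigen gene Ly6g, was higher, a call lost without class 1 replicate 1. Ly6a, which encodes Sca-1 and responds to interferon, was at 0.346 and 1 CPM in class 3 and 48.9 and 60.4 CPM in class 1 (edgeR log2 fold change −6.31, SE 0.466, adjusted p = 0.000342), and Ly6i was at 2.7 and 0.912 CPM in class 3 and 94.6 and 88.9 CPM in class 1 (edgeR log2 fold change −5.68, SE 0.469, adjusted p = 0.000439), while Ly6c2, whose sequence is close to that of Ly6i, differed by 0.16. Reads may be shared between such copies.

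Of 22 chemokine receptor and egress genes, 11 were lower in class 3 and 2 higher, where 7.94% of all genes tested were lower and 5.44% higher. The rises were Cxcr4, the receptor that retains cells in the marrow, at 71.9 and 93 CPM in class 3 and 40.8 and 40.5 CPM in class 1 (edgeR log2 fold change 1.02, SE 0.172, adjusted p = 0.00742), and S1pr4. Without class 3 replicate 2 or class 1 replicate 1, neither rise was called, and 6 genes were lower without class 3 replicate 2. Among 34 chromatin regulator genes, 5 were higher and 1 lower, with 1 to 7 higher when any of the 4 libraries was left out, the lowest without class 1 replicate 1. Over all genes tested 13.4% were called, 5.44% higher and 7.94% lower, so the chromatin list as a whole was near that share. Dnmt1, which copies DNA methylation after replication, was at 389 and 395 CPM in class 3 and 159.5 and 174 CPM in class 1 (edgeR log2 fold change 1.23, SE 0.181, adjusted p = 0.00406), and Dnmt3a, which sets new methylation, was at 10.5 and 15.8 CPM in class 3 and 44.5 and 38.6 CPM in class 1 (edgeR log2 fold change −1.66, SE 0.254, adjusted p = 0.00489). Of 19 apoptosis genes, 9 were lower and 1, Bid, higher, and 3 to 5 were lower and 0 higher when any of the 4 libraries was left out. The survival genes Bcl2a1a, Bcl2a1b and Bcl2a1d, near-identical copies whose reads may be shared, had log2 fold changes of −3.92, −4.12 and −3.55. Of 7 NADPH oxidase genes, 2 were lower, and Cybb, the catalytic subunit, was at 1120.5 and 929 CPM in class 3 and 2462 and 2310.3 CPM in class 1 (edgeR log2 fold change −1.22, SE 0.154, adjusted p = 0.00207).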
